A study of Zea mays with 12 samples.

Results

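In the embryos of maize inbred line 102, 267 of the 33589 genes in the deposited table were counted in every library while the embryos of line 55 gave next to no reads for them. They were chosen by a rule on the readout itself: an FPKM, the abundance scaled to transcript length and library depth, that reached 1 or more in all 6 line 102 libraries and a count of at most 3 in each of the 6 line 55 libraries. The 267 genes were 1.54% of the 17369 genes that reached 1 FPKM in all 6 line 102 libraries. The difference between the lines is therefore the definition of the set, and it is described here without a test. When the lines were exchanged in the rule, 237 of 17037 genes were counted only in line 55, which was 1.39%.

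Line 102 (Ji853) is the low-temperature-sensitive inbred line of the study and line 55 (Zao8-3) the tolerant line. Seeds took up water for 6 h at 25 °C and were then kept for 2 h at 25 °C (CT) or at 10 °C (LT), after which embryos were isolated and their polyadenylated RNA was sequenced. The groups CT_55, LT_55, CT_102 and LT_102 held 3 libraries each. Each line was 1 inbred genotype, so a difference between them is a difference between these 2 lines and not between tolerant and sensitive maize in general. Total counts per library ran from 44028579 to 67873652. The embryo markers glb1 and glb2, which code for storage globulins, and vp1, a regulator of seed maturation, were high throughout, and their lowest values in any library were 3110 FPKM, 7196 FPKM and 203 FPKM, respectively. The endosperm regulators o2 and pbf1 stayed at or below 0.237 FPKM in every library. Other endosperm genes on the same marker list were counted. The gene sh2 ran from 0.944 to 3.22 FPKM over all libraries. The gene wx1 ran from 1.98 to 3.67 FPKM in CT_55 and stayed at or below 0.815 FPKM in the other groups. Genes described as zeins, the storage proteins of the endosperm, summed to between 1.51 and 7.36 FPKM in line 102 and between 25.4 and 43.3 FPKM in line 55; 0 of these 29 genes was in the set, and their part in the line difference was not tested.

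Maize inbred lines are known to differ from each other in gene content as well as in gene sequence, and genes found in some lines and not in others are often short, poorly annotated or additional copies of genes that lie elsewhere in the genome. Reads were aligned to the genome of a further inbred line, B73. A gene that line 55 lacks, a gene that it carries and does not transcribe, and a gene whose line 55 reads do not align to the B73 copy all give a count of 0, and these cases cannot be told apart from the counts.

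Of the 267 genes, 244 had a count of 0 in all 6 line 55 libraries. The other 23 reached a highest line 55 count of 1 (3 genes), 2 (16 genes) or 3 (4 genes). Together the genes drew 66830 to 80359 counts in each line 102 library, or 0.129% to 0.142% of its total, and 4 to 13 counts in each line 55 library. Low counts in the table were often multiples of 4 (41.7% of the counts from 1 to 19), so 3 counts may stand for less than 1 sequenced fragment. For the 244 genes at 0, the mean depth-scaled counts in line 102 were 4.17-fold to 806-fold higher than the limit of 3 counts per line 55 library at 25 °C, with a median bound of 52.0-fold. At 10 °C the bounds ran from 3.49-fold to 1036-fold with a median of 67.3-fold. Such bounds hold only where a count stands for a fragment, and they overstate the least difference where a fragment gives several counts. The lowest bounds belonged to genes with few counts, and 23 of the 267 had under 20 counts in at least 1 line 102 library. The lowest count of any of the 267 genes in a line 102 library was 4.

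Genes at the edge of the rule were as follows. Just inside the FPKM limit lay LOC100304123 and LOC100192906, both uncharacterized, whose lowest line 102 values were 1.01 FPKM. LOC111590292 and LOC103649787, the latter annotated in part as a mitochondrial uncoupling protein, missed it with lowest values of 0.998 and 0.992 FPKM. Just inside the count limit lay LOC109944902 and LOC103652882, each with a highest line 55 count of 3. LOC103634974 (lowest line 102 value 65.3 FPKM) and LOC109944947 (37.5 FPKM, described as programmed cell death protein 2) had a highest line 55 count of 4 and were left out by that single count. A further band of genes was close to the rule: 181 genes that reached 1 FPKM in all line 102 libraries had a highest line 55 count of 4 to 10.

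The genes were mostly low. Their mean FPKM over the 6 line 102 libraries had a median of 3.87 and quartiles of 2.27 and 8.72, against a median of 12.6 over the 17369 genes. A mean FPKM under 5 was found for 160 genes, one from 5 up to 10 for 47 genes and one of 10 or more for 60 genes. The median of the mean counts was 168 against 1003 over the 17369 genes. Replicates also scattered more at these levels: the median coefficient of variation of FPKM among the 3 replicates was 16.5%, against 8.74% over the 17369 genes.

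The highest FPKM belonged to LOC111589958, an uncharacterized gene at chr8:64251515-64252504 (B73 RefGen_v4, plus strand). It measured 334, 311 and 319 FPKM in the CT_102 libraries and 376, 383 and 311 FPKM in the LT_102 libraries, with a count of 0 in all line 55 libraries. The groups overlapped. LOC111591335 on chromosome 4 followed with a mean of 242 FPKM and LOC111347723 on chromosome 3 with 103 FPKM. Both are uncharacterized. These 3 genes held 26.4% of the summed FPKM of the set and only 3.85% of its counts.

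FPKM and counts ranked the genes differently. The transcript length that the deposited count and FPKM of a gene imply together was 78.1 bases for LOC111589958, 76.0 bases for LOC111591335 and 76.1 bases for LOC111347723, although the listed span of each of these genes is far longer. An implied length under 80 bases was found for 19 of the 267 genes (7.12%) and for 1.39% of the 17369 genes. Among the 12 genes with the highest mean FPKM, 5 had such a length, and only 4 of these 12 were also among the 12 with the most counts. The median implied length was 733 bases in the set, 1454 bases over the 17369 genes and 832 bases for the genes counted only in line 55. Of the 12 genes with the highest mean FPKM, 10 had an implied length under 300 bases. A rank by FPKM within the set is for this reason not a rank by counts.

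**Figure D1:**
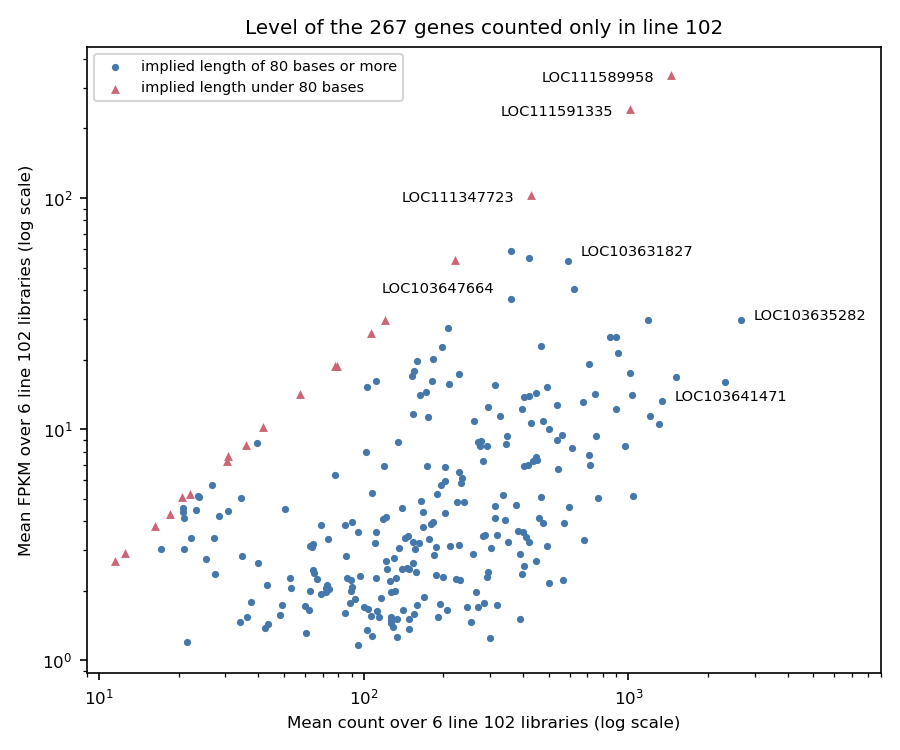
Mean FPKM (y axis, log scale) against mean count (x axis, log scale) over the 6 line 102 libraries, with 1 point per gene of the 267; triangles mark the 19 genes with an implied length under 80 bases. The 3 genes with the highest FPKM are triangles, while LOC103635282, which has the most counts, lies at 29.6 FPKM.

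The most counted gene was LOC103635282, which lies 206 bases downstream of LOC111589958 on the same strand of chromosome 8 and is likewise uncharacterized. Its counts were 2602, 2670 and 2632 in CT_102 and 2430, 2936 and 2683 in LT_102, against 0 in every line 55 library. Its bound of 806-fold at 25 °C and of 1036-fold at 10 °C was the largest among the 244 genes. By counts it was followed by genes that were picked out after their values were seen: IDP256 on chromosome 9 (mean count 2314.5, described only as unknown) and LOC100273760 on chromosome 2 (mean count 1513.5), which the newer RefSeq annotation lists as a transcribed pseudogene. Both had 0 counts in line 55.

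Further genes of high FPKM had a known function in their description. LOC103647664, described as argonaute 18, a member of the small-RNA-binding argonaute proteins known from grasses, measured 32.5, 33.2 and 40.4 FPKM in CT_102 and 38.4, 39.4 and 34.5 FPKM in LT_102. The values of the groups overlapped. LOC109945854, a RICESLEEPER 2-like protein of the kind derived from hAT transposases, had a mean of 55.0 FPKM with a wide spread, from 28.7 to 80.5 FPKM. LOC103638638, described as NAP1 and listed as a long non-coding RNA (lncRNA), had a mean of 40.6 FPKM. LOC111590882 (RING zinc finger description, 29.7 FPKM), LOC111591190 (53.9 FPKM), LOC111589949 (59.0 FPKM) and LOC100272348 (29.6 FPKM) completed the 12. The last 3 are uncharacterized.

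The annotation of the genes differed from that of the expressed genes as a whole, as a description. Transcript identifiers were of the non-coding type only for 100 of the 267 genes (37.5%), against 799 of the 17369 genes (4.60%). By symbol, 238 of the 267 genes (89.1%) matched the newer RefSeq annotation. Of these, 128 were protein coding (53.8%), 66 were lncRNA genes (27.7%), 32 were pseudogenes (13.4%), 7 were small nucleolar RNA genes and 5 were listed as other RNA. Among the 12885 of the 17369 genes that matched, the shares were 93.3% protein coding, 3.65% lncRNA and 1.87% pseudogene. At least 1 Gene Ontology (GO) term was attached to 59.9% of the 267 genes and to 90.5% of the 17369. A description as uncharacterized, or none at all, was found for 148 of the 267 genes (55.4%) and for 47.2% of the 17369.

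The genes counted only in line 55 looked alike in these respects: 36.7% had non-coding identifiers only, 26.5% of the matched genes were lncRNA genes and 12.3% were pseudogenes. The annotation profile was thus shared by both sets and was not particular to line 102. Since both sets hold lower and shorter genes than the whole, their level and length moved with these shares, and their part in them was not tested.

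**Figure D2:**
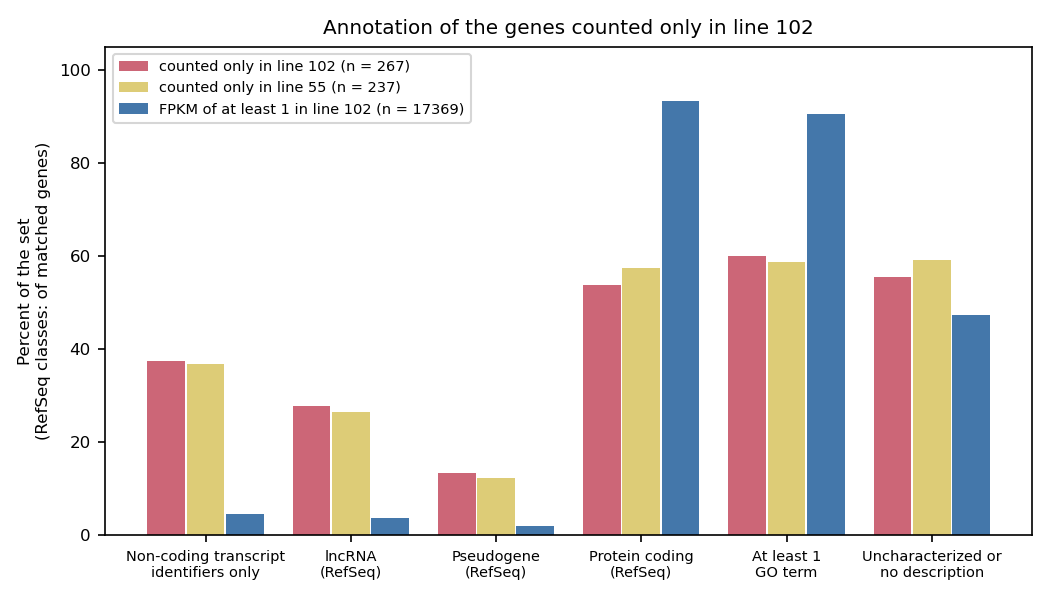
Percent of genes (y axis) in each annotation class for the 267 genes counted only in line 102, the 237 counted only in line 55 and the 17369 genes that reached 1 FPKM in all line 102 libraries; the RefSeq classes are shares of the genes that matched by symbol. Both line-restricted sets have 36.7% to 37.5% of genes with non-coding identifiers only, against 4.60% of all expressed genes.

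By the key words of their descriptions, 119 of the 267 genes carried some named function and 83 of them fell into a family. None of the families held more than 11 genes. The families are given below by role with their shares of the set and of the 17369 genes, as a description.

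Transposon-derived proteins numbered 8 (3.00% of the set, 0.386% of the 17369 genes). Among them were 4 RICESLEEPER-like proteins, of which LOC109945854 was the highest, the retrotransposon-like LOC109945572 (mean 22.8 FPKM, an lncRNA gene in RefSeq) and LOC103630551, with an hAT dimerisation domain (mean 15.1 FPKM). The genes counted only in line 55 held 2 such proteins (0.844%).

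Disease resistance proteins of the NLR type, the intracellular receptors by which plants recognize pathogen effectors, numbered 4 of 267 (0.230% of the 17369). The set holds a neighbouring pair on chromosome 10 described as RPM1, a resistance protein known from Arabidopsis: LOC109942871 at chr10:97752752-97753457 and LOC103641471 at chr10:97755607-97759001, 2149 bases apart on the plus strand. RefSeq lists both as transcribed pseudogenes. LOC103641471 had counts of 1034, 1118 and 1287 in CT_102 and 1403, 1576 and 1610 in LT_102. LOC109942871 had 215, 265 and 290 in CT_102 and 323, 407 and 375 in LT_102, and its highest count in line 55 was 2. For both genes every LT_102 library lay above every CT_102 library. FPKM values were separated in this way for 15.4% of the set and for 16.1% of the 21000 genes tested between the temperatures. Neither gene passed the adjusted test given below. The other members of this family were LOC103650446 (NBS-LRR, 4.09 FPKM) and LOC103648158 (RPP13-like, 2.56 FPKM).

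Protein kinases numbered 7 (2.62% against 2.69%), led by LOC109943160 (PIX7-like, 6.35 FPKM) and LOC103632367 (a STRUBBELIG receptor family member, 5.21 FPKM). The ubiquitin system, which marks proteins for degradation, numbered 9 (3.37% against 2.59%). Its highest member was LOC103631827, described as like CAND1, the cullin-associated protein that exchanges the substrate receptors of cullin ubiquitin ligases. It measured 44.9, 45.6 and 47.1 FPKM in CT_102 and 63.0, 60.1 and 60.8 FPKM in LT_102, with a count of 0 throughout line 55. All 3 LT_102 values were above all 3 CT_102 values, as for 16.1% of the 21000 genes tested between the temperatures. The gene did not pass the adjusted test given below.

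Transcription factors and other zinc finger proteins numbered 11 (4.12% against 3.03%). LOC109944619, a zinc finger protein related to a general transcription factor, had the highest FPKM (16.2), and LOC100282046, described as a CBF1-interacting corepressor, had a mean count of 1034, with 14.02 FPKM. LOC103652370, described as HOX10, a homeodomain-leucine zipper protein, had 5.05 FPKM. LOC103644213, described as TIFY 11b, a family that holds repressors of jasmonate signalling, had 1.74 FPKM.

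Genes for translation numbered 7 (2.62% against 2.37%). They held LOC109939222 and LOC103629584, both like the acidic ribosomal protein P3 of the large subunit (13.8 and 7.60 FPKM), and LOC103638199, LOC103653449 and LOC103651279, all like protein S4 of the small subunit (12.3, 2.87 and 2.77 FPKM). RNA processing and argonaute genes also numbered 7 (2.62% against 1.28%). Besides argonaute 18 they held LOC109943559 and LOC103629158, both described as argonaute 14 (4.88 and 2.49 FPKM), and LOC109944516, described as subunit 9B of RNA polymerases (16.2 FPKM, an lncRNA gene in RefSeq).

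Helicases numbered 4, with LOC109941472 (20.1 FPKM) and LOC103645001 (2.41 FPKM) as the only genes of the table described as DEAD-box RNA helicase 53, and with the PIF1-like LOC109939436 at 6.90 FPKM. Proteins of the cytoskeleton and of vesicle traffic numbered 8 (3.00% against 0.927%), led by LOC109944630 (beta-adaptin-like, 11.4 FPKM) and LOC103644340 (myosin-12, 9.37 FPKM). Their key words were drawn up after the descriptions had been read, so their share is a description of the choice as well.

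Of the 5 transporters (1.87% against 1.92%), LOC111589254 (ABC transporter G 39, 15.2 FPKM) and LOC100272514 (vacuolar proton-pumping pyrophosphatase, 7.70 FPKM) were highest. Metabolic enzymes included LOC103629010, like indole-2-monooxygenase, a cytochrome P450 of the benzoxazinoid defence pathway (17.4 FPKM), LOC109940171 (sphinganine C4-monooxygenase 2, 4.84 FPKM) and LOC103632443, described as NCED3, the enzyme family that makes the precursor of abscisic acid (1.54 FPKM). Proteases numbered 3 (1.12% against 0.990%), with LOC100856992 (Do-like 9, 4.17 FPKM) and LOC103652882 (cysteine protease XCP1, 2.70 FPKM) highest. LOC103634831 (GDSL lipase, 3.95 FPKM) and LOC103636921 (phospholipase A, 3.78 FPKM) made up the lipid group (0.749% against 0.881%). Of the pentatricopeptide repeat proteins, which edit and process organelle RNA, there were 2, LOC111590833 (3.80 FPKM) and LOC103634329 (2.11 FPKM), or 0.749% of the set against 1.23% of the 17369. No gene of the set was described as a histone or chromatin protein, as 114 of the 17369 genes were.

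All genes with an orthology number shared it with further genes. A KEGG orthology (KO) number was attached to 72 of the 267 genes, and the 60 numbers involved all had at least 1 other gene that reached 1 FPKM in all 6 line 55 libraries. The genes of the set supplied a median of 2.46% of the summed FPKM of their KO number in line 102. Their share was under 10% for 46 of the 60 numbers and above 50% for 4. KO numbers and descriptions in the table often named different proteins. The shares by KO number are therefore no measure of further copies of the described protein. Single cases were also compared by description.

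By description, the copies outside the set differed in kind. The single further P3 gene, arpp3, was at 70.9 ± 4.37 FPKM in CT_102 and 63.3 ± 5.60 FPKM in CT_55 (SD, n = 3 each), and the P3-like genes of the set supplied 22.9% of the summed P3 level in line 102. For S4, the 40 genes outside the set summed to 1635 ± 34.5 FPKM in CT_102 and 1921 ± 185 FPKM in CT_55, and the set supplied 1.02%. LOC111589933 alone held 585 and 1129 FPKM of these sums, with a highest count of 5642 in line 102 and 10981 in line 55. LOC103644306 was at 350 FPKM in CT_102 and 242 FPKM in CT_55. Its highest counts were larger, at 61964 in line 102 and 40492 in line 55. By KO number (K02987), the other genes summed to 819 ± 7.33 FPKM in CT_102 and 652 ± 81.3 FPKM in CT_55, and the set supplied 2.20%. LOC111589933 is not part of the KO sum, which in CT_55 was below the level of that gene alone. The order of the lines differed between the 2 groupings, and the part of LOC111589933 in this was not tested. For CAND1, gpm596 was at 218 ± 15.9 FPKM in CT_102 and 162 ± 15.6 FPKM in CT_55, and LOC103631827 supplied 18.4% of the sum over 4 genes. These 3 proteins thus had well-measured transcripts in both lines.

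Argonaute 18 was the reverse case by FPKM, and its share by counts was not compared. LOC103647664 supplied 87.9% of the summed level in line 102, and the only other expressed copy, LOC109939203, was at 3.81 ± 0.545 FPKM in CT_102 and 2.80 ± 0.344 FPKM in CT_55. For argonaute 14, no gene of that description reached 1 FPKM in all line 55 libraries. LOC103644214, the next gene on chromosome 1 after the set's LOC109943559, was at 27.4 ± 1.93 FPKM in CT_102 and 39.7 ± 0.422 FPKM in LT_102, and its highest count in line 55 was 6, which placed it just outside the rule.

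Among the genes described as vacuolar proton-pumping pyrophosphatase, the highest in line 102 also lay outside the rule. By KO number the picture differed. The 27 other genes with the number K01507 summed to 963 ± 32.9 FPKM in CT_102 and 644 ± 108 FPKM in CT_55. Of these, 12 reached 1 FPKM in all line 55 libraries. The values by description are as follows. LOC103647441 on chromosome 2 was at 424 ± 15.3 FPKM in CT_102 and 0.222 ± 0.207 FPKM in CT_55, with a highest line 55 count of 26, while the set's LOC100272514 and LOC103628779 supplied 2.46% of the summed level in line 102. Of the genes described as indole-2-monooxygenase, LOC103629010 was counted only in line 102, and LOC109940614, also on chromosome 6, had counts of 0 in all line 102 libraries and 24.6 ± 1.10 FPKM in CT_55 and 27.4 ± 0.583 FPKM in LT_55. Reads of near-identical copies can be split or moved between them by the counting, so values of single copies are uncertain.

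**Figure D3:**
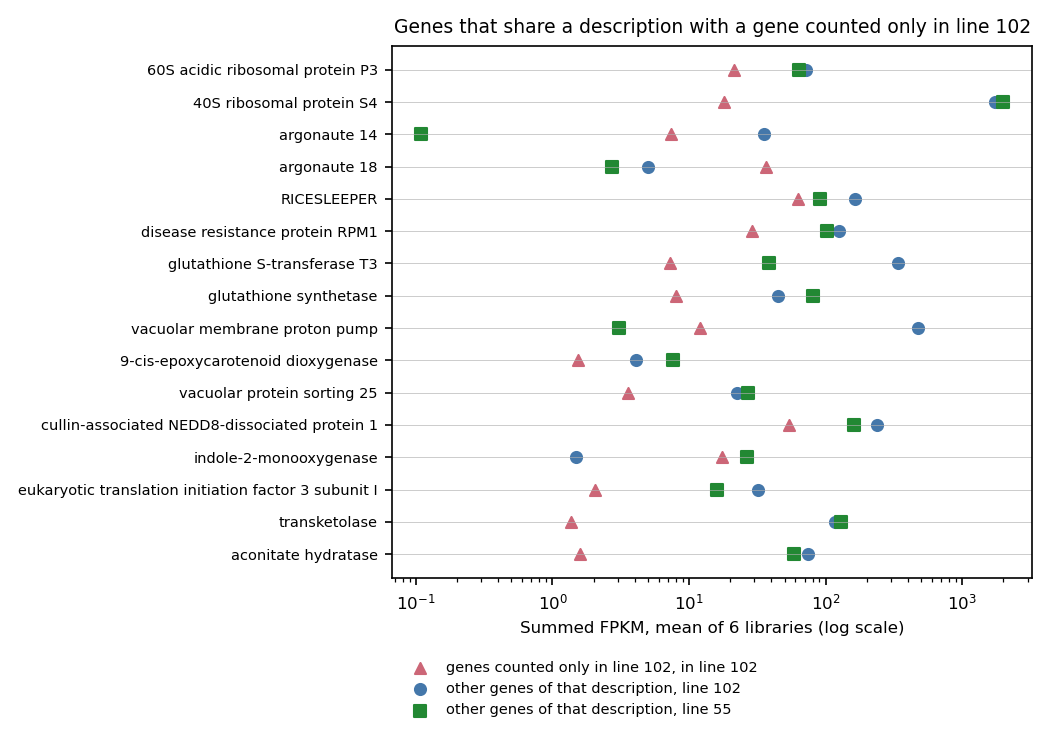
Summed FPKM (x axis, log scale, mean of 6 libraries) for genes that share a description (y axis): triangles are the genes counted only in line 102, circles the other genes of that description in line 102 and squares those other genes in line 55. For S4 the other copies lie far above the set's 1.02% share, whereas for argonaute 18 the set's gene lies above the other copies in both lines.

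The genes lay on all 10 chromosomes. Their share of the expressed genes of a chromosome ran from 0.759% on chromosome 5 (16 genes) to 2.28% on chromosome 10 (25 genes), around 1.54% in all. Chromosomes 1 and 2 held most, with 42 and 40 genes, and 3 genes lay on unplaced scaffolds. When the expressed genes were put in order, 32 of the 527 next neighbours of these genes were themselves in the set (6.07%), while 1.54% of the expressed genes placed on chromosomes were. No test was run on this share.

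Within 100 kb of each other lay 30 genes, in 15 runs of 2. With a distance of 20 kb there were 12 runs and with 500 kb 26 runs, the longest of 4 genes. Several runs joined genes of like description. LOC103628779 and LOC100272514 at chr5:195753220-195758850, both described as the vacuolar pyrophosphatase, overlap on the plus strand and measured 4.34 and 7.70 FPKM. LOC103637622 and LOC109941340 at chr1:89157741-89163678, both described as U-box proteins, also overlap (7.36 and 2.00 FPKM). The P3-like genes lie 19301 bases apart on chromosome 6, and LOC111589594 and LOC111589596, both small nucleolar RNA genes, lie 95 bases apart on the same chromosome. Other runs joined unlike genes. LOC103634618 (a microtubule-associated protein) and LOC100192957 (unknown) overlap at chr1:56810200-56816375 and measured 4.13 and 2.29 FPKM. LOC100217020 (a serine-threonine protein kinase, 3.14 FPKM) and the helicase LOC109941472 lie 63696 bases apart on chromosome 1, and LOC103629824 (WNK1-like kinase, 3.21 FPKM) and LOC103630551 (hAT domain) lie 84080 bases apart on chromosome 6.

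Coordinates of 27 genes of the set overlapped another listed gene, on the same strand for 16 and on the opposite strand for 11, and whether the counting used strand is not given in the sources used here. Some of the partners were near the rule as well. LOC103634974, which overlaps LOC111589941 on the opposite strand, had a mean of 70.2 FPKM in line 102 and 0.0238 FPKM in line 55, and LOC109943446, which overlaps LOC103638724, had 14.2 and 0.0877 FPKM. Others were expressed in both lines, such as the receptor kinase gene LOC542670 (179 and 124 FPKM), which overlaps LOC109945802.

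The contrast between the temperatures in line 102 did not enter the rule and was tested. The rule did require an FPKM of at least 1 at both temperatures, so a gene silent at either could not enter the set. LT_102 was compared with CT_102 by edgeR's quasi-likelihood test over 21000 genes, with Benjamini-Hochberg adjustment over all of them. Of the 267 genes, all of which were tested, 2 were lower at 10 °C at an adjusted p under 0.05 (0.749% of the set), where 2.04% of all tested genes were called lower. None was called higher (background 0.238%), and 2.28% of all tested genes were called in either direction. When only the 17369 genes that reached 1 FPKM in all 6 line 102 libraries were tested, 2.77% were called lower and 0.472% higher. The set then again had 2 lower and 0 higher. At an unadjusted p under 0.05, 16 genes were higher and 8 lower, or 24 in all (8.99%), against 8.72% higher, 11.7% lower and 20.4% in all among the tested genes. DESeq2 called 5 higher (1.87% of the set, 2.66% of all tested genes) and 2 lower (0.749% against 5.83%). With limma on log2(FPKM + 1), 1 was higher and 1 lower (0.375% each, against 0.114% and 0.576%). Without CT_102 replicate 3, edgeR called 3 higher and 3 lower (1.12% each, against 2.45% and 5.05%). Without LT_102 replicate 3 it called 1 higher and 2 lower (0.375% and 0.749%, against 0.0286% and 0.819%). Without any other single library it called 0 higher (against 0% to 0.0190%) and 1 lower (0.375%, against 0.324% to 0.752%). The share of the set called lower was above that of all tested genes without CT_102 replicate 2. The standard errors of the set were larger, with a median of 0.23 on the log2 scale against 0.13 over all tested genes. The median log2 fold change was 0.06 in the set and 0.00 over all tested genes, and 58.8% of the set was above 0, against 50.3%.

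LOC103641693, an uncharacterized protein-coding gene at chr1:187455542-187455996, fell most clearly. Its values were 32.4, 27.4 and 21.4 FPKM in CT_102 and 12.1, 11.0 and 10.2 FPKM in LT_102, with a count of 0 in every line 55 library. The groups did not overlap, and the highest LT_102 value was well below the lowest CT_102 value. The edgeR log2 fold change was -1.31 with a standard error of 0.15 (adjusted p = 0.00688), and the adjusted p stayed between 1.75e-13 and 0.0469 under the alternatives. The exact two-sided permutation test on FPKM gave p = 0.1, the smallest value that 3 against 3 libraries can give.

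LOC103641595, also uncharacterized and protein coding, lies at chr1:187060931-187062418 on the same strand, 393123 bases away. The 5 genes listed between them did not reach an FPKM of 1 in all line 102 libraries. LOC103641595 measured 4.60, 4.62 and 3.59 FPKM in CT_102 and 1.99, 2.16 and 2.51 FPKM in LT_102, and its highest count in line 55 was 2. Again the groups did not overlap. Its edgeR log2 fold change was -0.96 with a standard error of 0.15 (adjusted p = 0.0184). This call was lost in 7 alternatives, with adjusted p from 0.0597 to 0.132, among them the fits without CT_102 replicate 1 (0.0685), CT_102 replicate 2 (0.0892), LT_102 replicate 1 (0.0675) and LT_102 replicate 2 (0.0811).

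**Figure D4:**
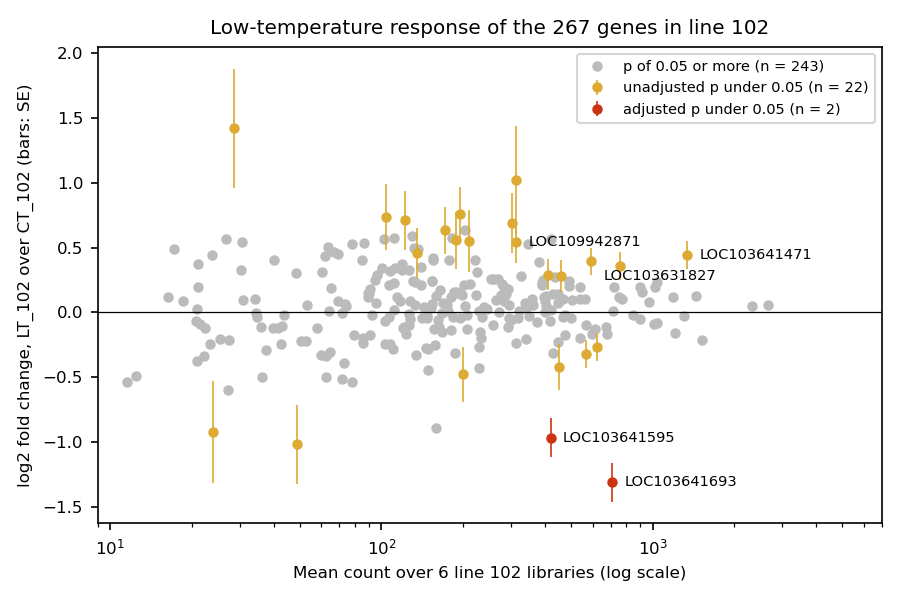
Log2 fold change of LT_102 over CT_102 from edgeR (y axis, bars are standard errors) against the mean count in line 102 (x axis, log scale) for the 267 genes. LOC103641693 at -1.31 and LOC103641595 at -0.96 are the only points past an adjusted p of 0.05, and 22 further points have an unadjusted p under 0.05.

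In the upward direction no gene passed the adjusted test, and the genes with the lowest p were the RPM1-like LOC103641471 and the CAND1-like LOC103631827. The log2 fold change of LOC103641471 was 0.44 with a standard error of 0.11 (edgeR, adjusted p = 0.0679). Under the alternatives its adjusted p ran from 0.00535 to 0.217, and it was under 0.05 only with DESeq2 (0.00535) and without CT_102 replicate 3 (0.0163). LOC103631827 had a log2 fold change of 0.39 with a standard error of 0.10 (edgeR, adjusted p = 0.0832), and an adjusted p between 0.0257 and 0.299 under the alternatives. The neighbouring RPM1-like LOC109942871 had 0.54 with a standard error of 0.16 (edgeR, adjusted p = 0.107). All 4 NLR genes of the set, the neighbouring pair among them, had a log2 fold change above 0, and none passed the adjusted test. A value above 0 was found for 58.8% of the set and 50.3% of all tested genes.

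Among the 8 genes of the cytoskeleton and vesicle traffic, 7 had a log2 fold change above 0 (50.3% of all tested genes) and 3 were higher at an unadjusted p under 0.05 (8.72% of all tested genes). The key words of this group were drawn up after the descriptions had been read. The 3 genes were LOC103645104 (formin-like 16, 0.76, edgeR adjusted p = 0.0934), LOC103644340 (myosin-12, 0.36, adjusted p = 0.123) and LOC103634618 (a 65-kDa microtubule-associated protein, 1.02, adjusted p = 0.213). The last of them overlapped between the groups, with LT_102 values of 6.50, 2.33 and 7.86 FPKM. The cysteine protease gene LOC103652882 had 0.71 (edgeR adjusted p = 0.131) and NAP1-like LOC103638638 had -0.27 (adjusted p = 0.207). None of the genes grouped as protein kinases, helicases, translation, RNA processing, transcription factors or transporters had an unadjusted p under 0.05. Such a p was found for 8.99% of the set and 20.4% of all tested genes. These groups are small, and the larger standard errors of the set apply to them as well.

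**Figure D5:**
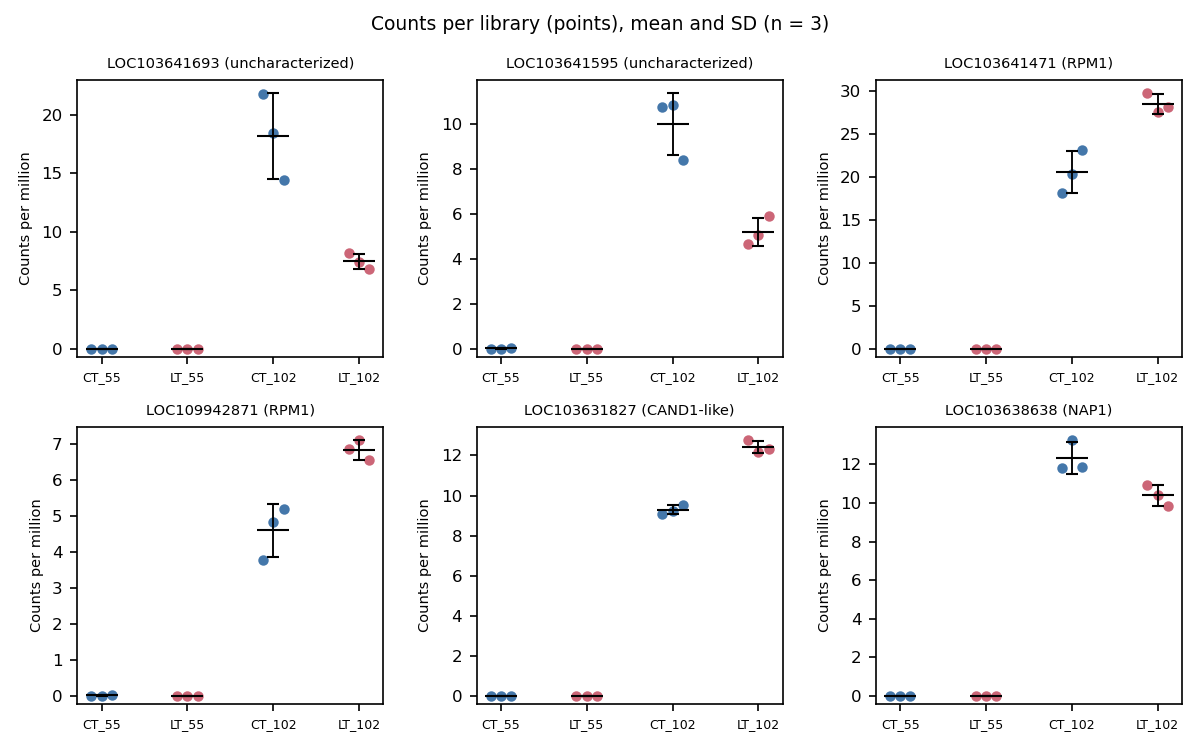
CPM, the count scaled to library depth (y axis), in each of the 12 libraries (points, by group on the x axis) with the mean and SD of the 3 replicates for 6 genes of the set. LOC103641693 and LOC103641595 are lower in every LT_102 than in every CT_102 library, the RPM1-like pair and LOC103631827 are higher, and all 6 genes are at or near 0 in line 55.

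A call by a change of at least 1.5-fold with an unadjusted p under 0.05 took 11 genes (4.12% of the set, background 5.61%), of which 7 were higher (2.62%, background 0.600%) and 4 lower (background 5.01%). Read by separation alone, the FPKM values of LT_102 and CT_102 did not overlap for 41 genes that were higher (15.4%, background 16.1%) and for 13 that were lower (4.87%, background 11.7%). The higher share under the fold rule came with the larger standard errors of the set, and their part in it was not tested. Among the genes whose fold change was largest, LOC109946046, an uncharacterized pseudogene, went from 11, 18 and 18 counts in the libraries at 25 °C to 39, 59 and 26 at 10 °C. The fitted change was 1.42 on the log2 scale with a standard error of 0.46 (edgeR adjusted p = 0.137).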

How the data were processed

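RNA-seq libraries of embryos from maize lines 55 and 102 at 25 °C and 10 °C (3 biological replicates per group, 12 libraries) were analysed from the deposited table. Per the labels and the submitters' processing notes, the authors used HISAT, StringTie and edgeR (versions not given in the sources used here) on B73 RefGen_v4; the deposited counts per gene were not normalized, and the deposited FPKM values were the authors' own. The table has 33589 genes; no row lacked a gene name. Gene classes came from RefSeq matched by symbol (another B73 assembly, used for names and classes only).

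Members followed the rule stated in the report. The members, the lists and the tests were chosen with earlier results of these data known, and the key words of families and of shared descriptions were adjusted after the descriptions had been read. LT_102 was compared with CT_102 by edgeR 4.0.16 (quasi-likelihood, TMM normalization, a filter of 0.5 FPKM in 3 or more of the line 102 libraries, Benjamini-Hochberg adjustment over all tested genes) in R 4.3.3; limma 3.58.1 and DESeq2 1.42.0 were alternatives. The script was tested on simulated counts. Tables and figures were made with Python 3.11.15, pandas 2.3.3, SciPy 1.17.1 and matplotlib 3.10.9. P-values measure the spread between these libraries. Limits from 3 counts cover counting error only, and only where a count stands for a fragment. Genes named were the 12 highest by mean FPKM, up to 5 per direction by cold response (or the 2 with the lowest p), the 2 highest per family, the members of 3 runs and the genes nearest each threshold; other names were chosen with their values in view. The implied length is the length at which the count, the FPKM and the library total fit together, as a median over the line 102 libraries. No 2 of the 66 pairs of libraries were identical.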

Additional observations from a re-analysis of the deposited data

How the results depend on the processing

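The number of genes in the set was 448 with a line 55 count of up to 10 and 86 with an FPKM of at least 5 in line 102. It stayed within 1.5-fold of 267 under the other limits tried, with 244 at a line 55 count of 0, 369 at an FPKM of 0.5, 263 at 0.05 CPM and, chosen after seeing the data, 222 with at least 40 counts in all line 102 libraries. Leaving out 1 of the 12 libraries gave 270 to 291. The rule asks every library to pass, so this step could only keep or add genes and does not test the set.

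In the cold response, genes of the set called higher numbered 5 with DESeq2 (559 of all tested genes), 1 with limma on log2(FPKM + 0.1) (15) and 1 on log2(FPKM + 1) (24), and 7 by the 1.5-fold rule (126). Genes called lower numbered 1 with all 12 libraries in a single fit (159 of all tested genes), 1 with each limma setting (107 and 121) and 4 by the 1.5-fold rule (1052). Leaving out a library gave 0 to 3 higher and 1 to 3 lower, and both highest counts came without CT_102 replicate 3, where all tested genes called rose to 515 higher and 1060 lower from 50 and 428. Other size factors, no filter, a stricter filter and counts divided by 4 (chosen after seeing the data) kept 0 higher and 2 lower. Of all genes tested in these settings, 0.138% to 0.472% were higher and 1.48% to 2.77% lower.

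Over the 24 genes with an unadjusted p under 0.05 and up to 15 alternatives each, 358 values of the log2 fold change had 0 reversals, 7 lost calls, all of LOC103641595, and 10 gained calls in 5 genes. The replicate numbers did not pair the libraries: deviations of same-numbered libraries correlated at -0.067, -0.0039 and 0.013. With the replicate block, 0 genes of the set were higher and 2 lower, as without it (0.319% and 2.64% of all tested genes). A search for near-identical protein copies was not run, because protein sequences were not used here.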
